A study of Mus musculus with 6 samples.

Results

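The miR-125 and miR-99/100 families were followed as 5 microRNAs (miRNAs): mmu-miR-125a-5p, mmu-miR-125b-5p, mmu-miR-99a, mmu-miR-99b and mmu-miR-100, written below without the species prefix. Every capture probe whose name holds 1 of these mouse miRNAs was taken, which gave 5 probes of the 597 that name a mouse miRNA and 20 of the 8720 spots on each array. All 5 probes were tested. The rule uses probe names and no measured value. The study compared miRNA abundance in retinal cells between naive mice and mice in which experimental autoimmune uveoretinitis (EAU) was developing, a disease in which T cells that recognise retinal proteins inflame the eye. Both groups were B10.RⅢ mice aged 8 weeks, the first group labelled only as naive and the EAU group taken on day 14. The labels describe 3 independently harvested samples in each group and do not say how many mice a sample holds, how the disease was induced or how the cells were isolated, so a p-value here reflects variation from harvest to harvest, which may be technical. Total RNA (800 ng) of each sample carried the dye Hy3, and a shared reference that blends equal amounts of the samples carried Hy5 on all 6 arrays.

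MiRNAs guide Argonaute proteins to messenger RNAs that pair with their bases 2 to 8, the seed, and lower the output of those messages. MiR-125a and miR-125b are the vertebrate relatives of lin-4 of the worm. MiR-125b is abundant in neurons and glia of the central nervous system and is also known for its part in blood stem cells and macrophages. MiR-99a, miR-99b and miR-100 form an older family with mTOR among its known targets. In mammals the families lie together with let-7 genes in transcripts that give rise to all 3 kinds of miRNA.

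The mature sequences show how alike the 5 are, and which bases separate the probes' targets. They are from RefSeq (GRCm38.p6), 5′ to 3′, with the seed in capitals; names without an arm on the array were matched to the 5p arm.
miR-125a-5p: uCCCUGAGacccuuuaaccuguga
miR-125b-5p: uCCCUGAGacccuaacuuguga
miR-99a: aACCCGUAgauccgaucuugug
miR-99b: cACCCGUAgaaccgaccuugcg
miR-100: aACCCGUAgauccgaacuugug

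The members fall into 2 seed groups. MiR-125a-5p and miR-125b-5p share the seed CCCUGAG and their leading 13 bases, are 24 and 22 bases long, and lie at an edit distance of 3. MiR-99a, miR-99b and miR-100 share the seed ACCCGUA. MiR-99a and miR-100 differ by the single substitution U16A, counted from 1 at the 5′ end with the base of miR-99a written before the position. MiR-99a and miR-99b differ by 4 substitutions (A1C, U11A, U16C and U21C). How far the capture probes tell miR-99a from miR-100 was not measured here, so a share of either signal may come from the other.

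The genes lie in 3 clusters, each holding a miR-99/100 gene, a let-7 gene and a miR-125 gene in that order of position. On chromosome 17, Mir99b, Mirlet7e and Mir125a lie within 692 bp (17830188 to 17830879), inside the span of the protein-coding gene Spaca6. On chromosome 16, Mir99a, Mirlet7c-1 and Mir125b-2 span 47408 bp (77598936 to 77646343). On chromosome 9, Mir100, Mirlet7a-2 and Mir125b-1 span 50578 bp (41531425 to 41582002), inside the long non-coding RNA gene Mir100hg. Mature miR-99b lies at chr17:17830194-17830215, miR-125a-5p at chr17:17830817-17830840, miR-99a at chr16:77598940-77598961 and miR-100 at chr9:41531437-41531458. MiR-125b-5p is made from chr9:41581940-41581961 and chr16:77646279-77646300, so its probe reads both genes together. All 6 stretches lie on the plus strand, and exon or intron was not assigned.

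The arrays were dim. The median spot brightness in the Hy3 channel was 56.2 to 94.8, lowest on the EAU replicate 3 array and highest on the EAU replicate 2 array. Because the scanner software marked all 597 mouse probes as well above background on all arrays, a blank level was set per array from 144 blank and negative-control spots, as their median plus 3 median absolute deviations. A probe was called above the blanks where at least 50% of its spots were. By this measure 211 to 279 mouse probes were above the blanks in Hy3 per array. All 3 naive arrays were scanned on 1 day and all 3 EAU arrays on another, so an effect of the scan cannot be told apart from one of the group.

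In EAU the ratio of sample to reference was lower on average for all 5 members, by 0.16 to 0.36 on the log2 scale, but 0 of 5 passed the test. The test was limma's moderated test over 595 mouse probes with Benjamini-Hochberg adjustment and a threshold of 0.05, under which 77 probes (12.9%) were called, 8.74% as lower and 4.2% as higher in EAU. Without adjustment, 4 of 5 members had a p under 0.05, against 34.6% of all probes tested, with 23.4% of all probes lower in EAU. The same 4 members were lower in all EAU samples than in any naive sample, as were 29.6% of all probes, and 46.6% of all probes had no overlap in either direction. The median difference of the members was -0.20, against -0.01 over all probes tested. A difference below 0 was found for 58% of all probes. Among the 164 probes above the blanks on all 6 arrays, 25.6% were called, 49.4% had a difference below 0, and 29.9% were lower in EAU with no overlap. Lower signal from fewer cells of a type and from less RNA per cell cannot be told apart in such bulk RNA.

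MiR-125a-5p, made from the chromosome 17 cluster, showed the largest mean difference of the members in the main test. Its log2 ratio of Hy3 to Hy5 was 0.19, 0.43 and 0.24 in naive replicates 1 to 3, and 0.07, -0.16 and -0.14 in EAU replicates 1 to 3. All 3 naive samples lay above all 3 EAU samples, with a gap of 0.12 between the nearest samples of the groups. The means were 0.29 ± 0.12 (SD, n = 3) and -0.08 ± 0.13 (SD, n = 3). The difference was -0.36 (SE 0.09, 95% interval -0.59 to -0.14), a ratio 1.29-fold lower in EAU. It missed the threshold narrowly (limma adjusted p = 0.0578, unadjusted p = 0.00796), at rank 82 of 595 by p. Without EAU replicate 1, the EAU sample nearest to the naive ones, the difference was -0.44 and passed (limma adjusted p = 0.0358). One spot of miR-125a-5p, in naive replicate 2, was dropped as an outlier. With outlier spots kept its difference was -0.317, against -0.321 for miR-125b-5p, so its place as the largest rests on that spot.

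MiR-125b-5p, made from genes on chromosomes 9 and 16, had the widest spread of the members among the EAU samples. Its log2 ratio was 0.34, 0.29 and 0.11 in naive replicates 1 to 3, and 0.10, -0.33 and 0.00 in EAU replicates 1 to 3. Naive replicate 3 and EAU replicate 1 were 0.01 apart, so the groups only just failed to overlap. The difference was -0.32 (SE 0.13, 95% interval -0.64 to -0.00201) between means of 0.25 ± 0.12 and -0.07 ± 0.23 (SD, n = 3 each). It did not pass (limma adjusted p = 0.144). EAU replicate 2 held the lowest ratio, and without it the difference was -0.19.

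MiR-99b, encoded beside let-7e and miR-125a, varied least in the naive samples. Its log2 ratio was -0.08, -0.07 and -0.06 in naive replicates 1 to 3, and -0.11, -0.31 and -0.27 in EAU replicates 1 to 3. EAU replicate 1 lay near the naive samples, 0.04 below the lowest of them, and the other EAU samples lay clearly lower. The naive SD of 0.00671 was far smaller than the EAU SD of 0.10 (n = 3 each). The difference of -0.16 (SE 0.05, 95% interval -0.29 to -0.03) did not pass (limma adjusted p = 0.0998). Without EAU replicate 1 it was -0.22 and passed (limma adjusted p = 0.0102).

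MiR-99a, which differs from miR-100 by 1 base, was read close to the blanks. Its log2 ratio was -0.06, 0.02 and -0.13 in naive replicates 1 to 3, and -0.15, -0.33 and -0.31 in EAU replicates 1 to 3. The groups did not overlap, with a gap of 0.02 between naive replicate 3 and EAU replicate 1. The difference was -0.20 (SE 0.06, 95% interval -0.36 to -0.05), and it did not pass (limma adjusted p = 0.0815). Without EAU replicate 1 it was -0.26 and passed (limma adjusted p = 0.0406). It cleared the blank level on 2 of the 6 arrays, naive replicate 3 and EAU replicate 2.

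MiR-100 was the member whose groups overlapped. Its log2 ratio was -0.36, -0.22 and -0.49 in naive replicates 1 to 3, and -0.44, -0.61 and -0.64 in EAU replicates 1 to 3. Naive replicate 3 lay below EAU replicate 1, and the other EAU samples lay below all naive ones. The difference of -0.20 (SE 0.09, 95% interval -0.43 to 0.02) did not pass (limma adjusted p = 0.173). It cleared the blank level on 4 of the 6 arrays, namely naive replicates 1 and 3 and EAU replicates 1 and 2.

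**Figure D1:**
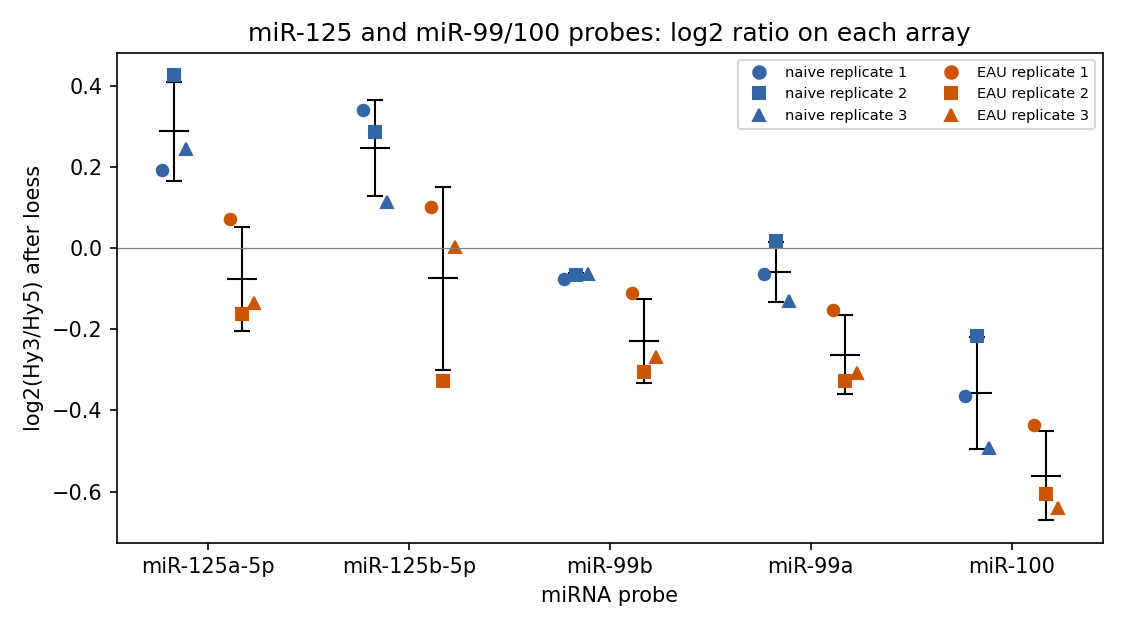
Log2 ratio of Hy3 (sample) to Hy5 (shared reference) after loess for each member probe, with 1 marker per array, blue for naive and orange for EAU, and black bars for the group mean ± SD (n = 3 each). The groups did not overlap for miR-125a-5p, miR-125b-5p, miR-99b and miR-99a, and overlapped for miR-100; EAU replicate 1 was the highest EAU sample for all 5.

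EAU replicate 1 had the highest ratio of the 3 EAU samples for every member. With it left out, 3 of 5 members passed, namely miR-125a-5p, miR-99b and miR-99a, where 77 of 593 probes (13%) passed. Leaving out any of the other 5 arrays gave 0 of 5 members, where 7 to 62 probes in all passed (1.18% to 10.4%), so that 0 of 5 is near the share over all probes.

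The brightness behind these ratios showed a different order of samples. MiR-125b-5p read 958, 1251 and 1001 in Hy3 in naive replicates 1 to 3, and 741, 1766 and 285 in EAU replicates 1 to 3, as the mean of its 4 spots before any correction. EAU replicate 2, the sample with its lowest log2 ratio, thus had its brightest spots, and EAU replicate 3 had its dimmest. MiR-125a-5p read 488, 459 and 428 in naive replicates 1 to 3, and 435, 757 and 167 in EAU replicates 1 to 3, with the same EAU samples at the top and the bottom. The array of EAU replicate 2 had a blank level of 127 and that of EAU replicate 3 one of 74.1, so the brightness of whole arrays differed too.

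The miR-99/100 probes were much nearer to the blanks. MiR-99b read 165, 266 and 162 in Hy3 in naive replicates 1 to 3, and 191, 249 and 149 in EAU replicates 1 to 3. MiR-99a read 89.9, 138 and 126 in the naive samples and 77.6, 173 and 111 in the EAU samples, in the same order. MiR-100 read 107, 160 and 93.7 in the naive samples and 86.9, 167 and 115 in the EAU samples. For these 3 the groups overlapped in brightness, and replicate 2 read brightest in each group before the local background was taken off. For miR-99a in naive replicate 2 that mean holds 1 spot of 284 over a local background of 192.5. The blank level of the arrays was 73.9 to 127, which overlaps the range of the miR-99a and miR-100 values. The probes of miR-125a-5p, miR-125b-5p and miR-99b were above the blanks on all 6 arrays. On EAU replicate 3 miR-99b was so by 2 of its 4 spots, which read 285 and 191 over local backgrounds of 228 and 40, while the others read 57.1 and 61.7, under the blank level of 74.1.

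**Figure D2:**
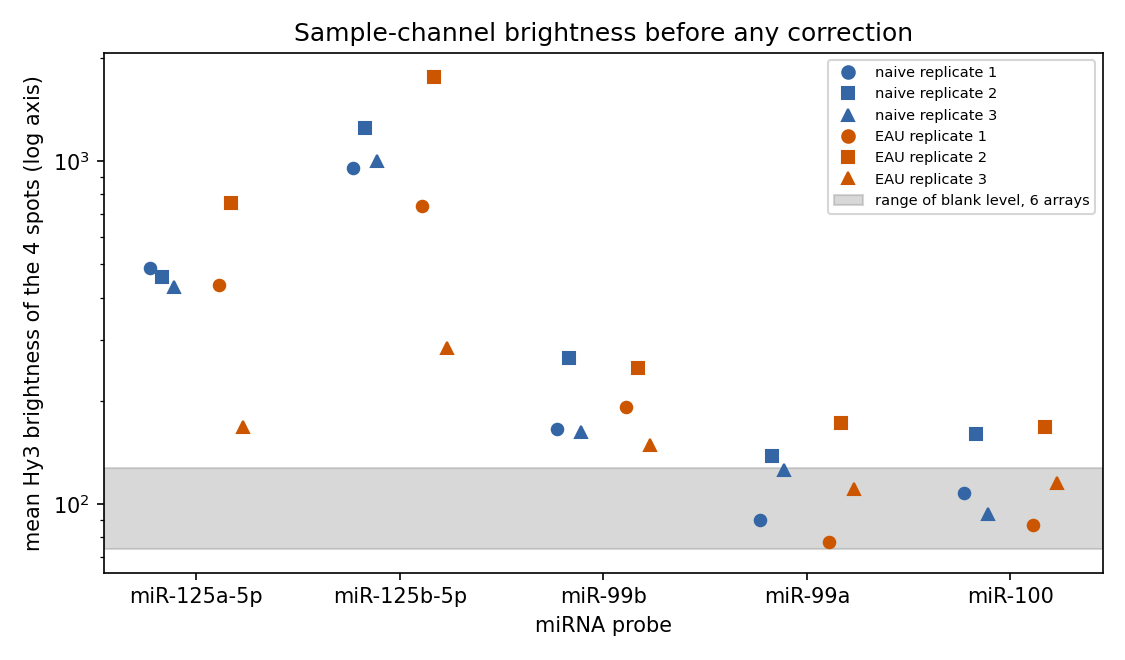
Hy3 brightness of each member probe before correction (mean of its 4 spots, log axis), blue for naive and orange for EAU arrays, with the range of the blank level over the 6 arrays in grey. MiR-125a-5p and miR-125b-5p lay above the grey band on every array, while miR-99a and miR-100 lay in or just above it; the brightest and the dimmest array for both miR-125 probes were EAU replicates 2 and 3.

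The sample channel was also tested alone, after quantile normalization between arrays. MiR-125b-5p had a log2 Hy3 signal of 9.88, 10.43 and 10.17 in naive replicates 1 to 3, and 9.51, 9.91 and 8.80 in EAU replicates 1 to 3. EAU replicate 2 exceeded naive replicate 1, so the groups overlapped. The difference was -0.75 (SE 0.31, 95% interval -1.52 to 0.02), larger than in the ratio, and it did not pass (limma adjusted p = 0.233). MiR-125a-5p had 8.93, 8.98 and 9.03 in the naive samples and 8.79, 8.74 and 8.04 in the EAU samples. Its groups did not overlap, and its difference of -0.45 (SE 0.21) did not pass either (limma adjusted p = 0.299). Without EAU replicate 3, the differences shrank to -0.21 for miR-125a-5p and -0.45 for miR-125b-5p.

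The differences in Hy3 alone were smaller for the other family. They were -0.22 for miR-99b, -0.17 for miR-100 and -0.12 for miR-99a, with limma adjusted p-values of 0.299, 0.288 and 0.737. In this channel 0 of 5 members passed, against 8.91% of all probes, and 0 had an unadjusted p under 0.05, against 22%. Only miR-125a-5p of the 5 had groups that did not overlap, against 14.1% of all probes in that direction and 28.6% in either.

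The reference channel, which holds the same pool on every array, was tested in the same way, so that its differences are not differences between samples. The difference in Hy5 was -0.26 for miR-125b-5p (SE 0.30), -0.01 for miR-125a-5p, 0.02 for miR-99b, 0.11 for miR-99a and 0.10 for miR-100. None of the 5 passed (limma adjusted p between 0.935 and 0.992), and neither did any of the 595 probes, of which 4.87% had an unadjusted p under 0.05. The groups overlapped for all 5, and did not for 8.74% of all probes. The reference was dim for the members. MiR-125a-5p read 90.8, 108 and 70.5 in Hy5 in naive replicates 1 to 3, and 68.9, 105 and 50.6 in EAU replicates 1 to 3, over a blank level of 38.6 to 46.0. EAU replicate 3 was the dimmest array for both miR-125 probes in the reference as well, but not for the other 3.

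The size of the members' differences depended on the normalization within arrays. Before it, the log2 ratio of miR-125a-5p was 2.19, 2.07 and 2.33 in naive replicates 1 to 3, and 2.39, 2.67 and 1.46 in EAU replicates 1 to 3. The EAU samples then lay on both sides of the naive ones, and loess, which lowers the ratio by an amount that depends on a spot's brightness, put all 3 below them. With each array centred on its median in place of loess, the differences were -0.08 for miR-125a-5p, -0.04 for miR-125b-5p, -0.02 for miR-99b, -0.07 for miR-99a and -0.06 for miR-100. With no normalization the differences of miR-125b-5p and miR-99b turned to 0.0157 and 0.0375. With loess fitted on bright spots alone, miR-125b-5p kept a difference of -0.32 and miR-125a-5p one of -0.23, while the 3 miR-99/100 members had -0.03 to -0.05.

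Other choices moved the differences or the calls. With the processed signals of the scanner software the differences were -0.61 for miR-125a-5p, -0.31 for miR-125b-5p, -0.45 for miR-99b, -0.68 for miR-99a and -0.63 for miR-100, and none of the 5 passed (limma adjusted p between 0.0574 and 0.380). With a normexp offset of 10 in place of 50 the difference of miR-99a was -0.48 and passed (limma adjusted p = 0.0477). Without background correction miR-99b had -0.28 and passed (limma adjusted p = 0.0290). MiR-125a-5p passed with the same difference where dim probes were removed before the test (limma adjusted p = 0.0342) and with a smaller one where its 1 outlier spot was kept (-0.32, limma adjusted p = 0.0398). Of all probes tested, 16.5% passed with an offset of 10 and 15.8% without background correction. With dim probes removed 62 of 249 (24.9%) passed, and with outlier spots kept 14.2%. In the authors' deposited ratios miR-100 went the other way: its linear ratio was 0.713, 0.901 and 0.984 in naive replicates 1 to 3, and 0.840, 1.10 and 1.10 in EAU replicates 1 to 3. That gave a log2 difference of 0.23 (limma adjusted p = 0.457), with overlap between the groups. How those ratios were normalized is not given in the sources used here.

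**Figure D3:**
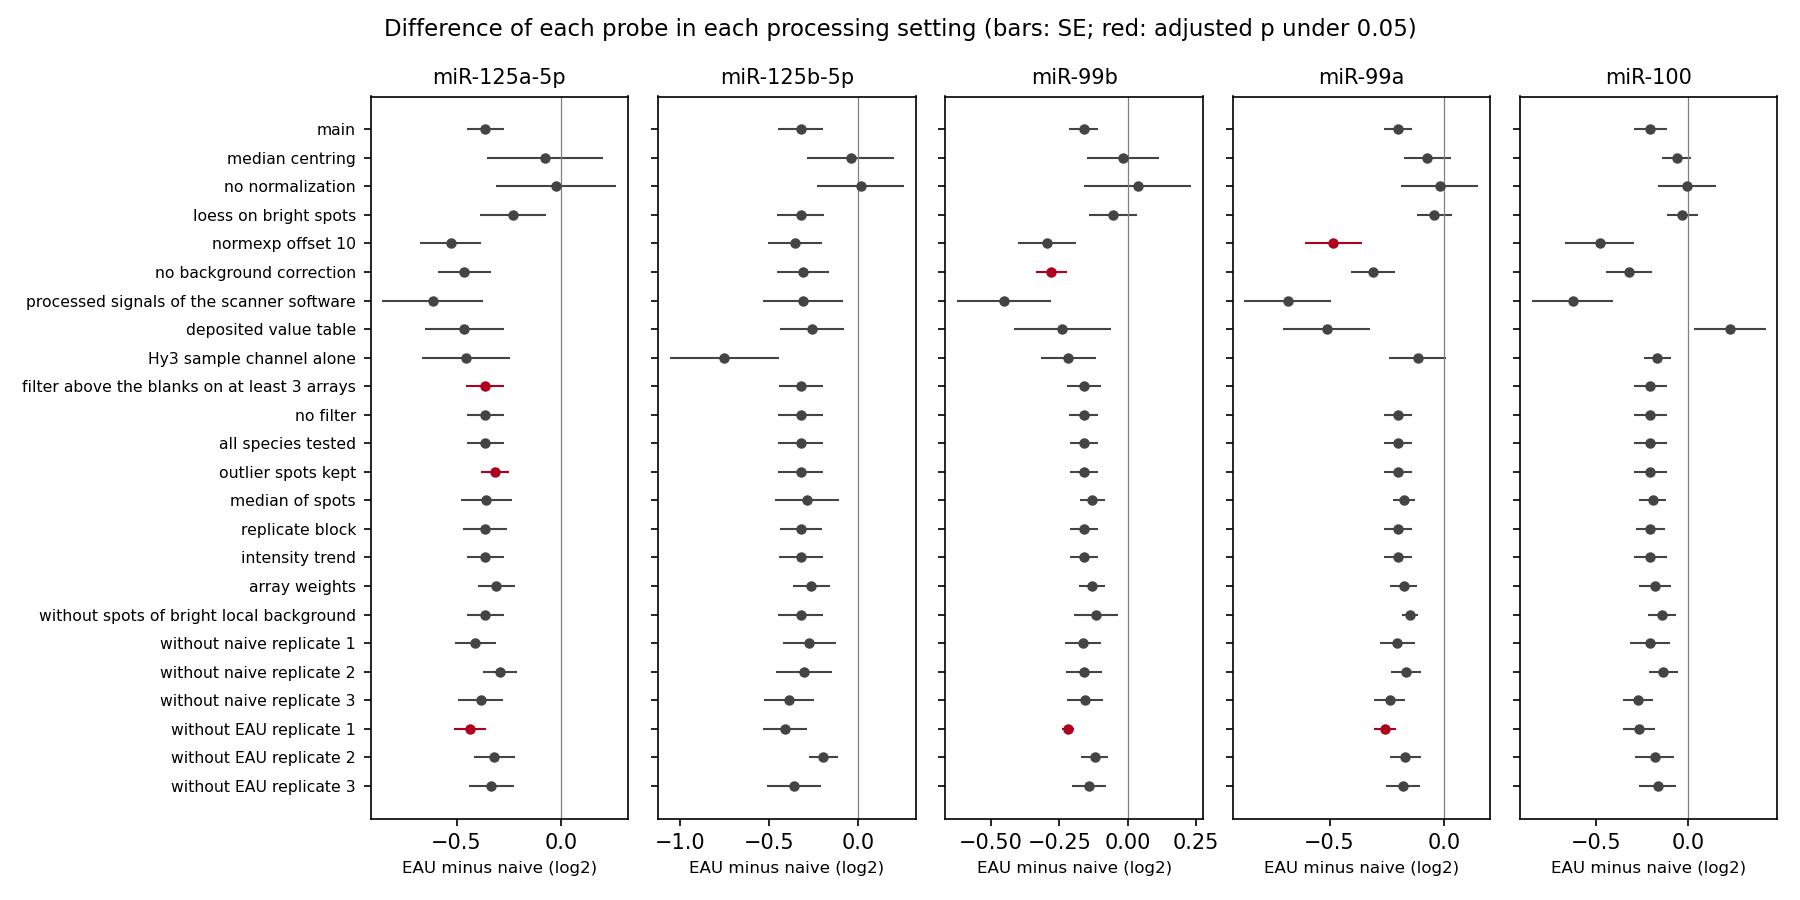
Difference of EAU minus naive in log2 units for each member under each processing alternative (rows), with bars of ± 1 SE and red for an adjusted p under 0.05; the scale differs between panels, and miR-99a has no point where dim probes were removed. The points lay near 0 with median centring or no normalization for all 5, and on the positive side of 0 for miR-100 in the deposited values.

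Spots of the same probe on the same array differed by amounts of the size of the group difference for the miR-125 probes. On some arrays this also held for miR-99b and miR-100. The SD of the log2 ratio over the 4 spots was 0.20 to 0.48 for miR-125a-5p and 0.26 to 0.58 for miR-125b-5p, depending on the array. For the other family it was 0.03 to 0.17 for miR-99a, 0.06 to 0.29 for miR-99b and 0.00862 to 0.27 for miR-100. For the miR-125 probes the spots kept an order from array to array. The ratio of miR-125a-5p fell from its first-listed to its last-listed spot on every array, from 0.50 to -0.53 on EAU replicate 2. That of miR-125b-5p was highest at its first-listed spot on every array. The cause was not tested. Spots of a probe share an RNA sample and an array and are not replicates of a condition.

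Several miR-99/100 spots lay in patches of bright local background. In 9 of 24 spots of miR-99b (37.5%), 5 of 24 of miR-99a (20.8%) and 3 of 24 of miR-100 (12.5%) the Hy3 background exceeded 2 times the median of the array, against 4.09% of all spots. Neither miR-125 probe had such a spot. The background reached 259 beside a miR-99b spot of EAU replicate 1, where the median over the array was 23. Both groups were touched, and no array had a bright patch at all 4 spots of a member. Without these spots the differences were -0.12 for miR-99b (limma adjusted p = 0.375), -0.15 for miR-99a (limma adjusted p = 0.0543) and -0.14 for miR-100 (limma adjusted p = 0.265). In Hy3 alone the difference of miR-99b was then 0.0206.

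**Figure D4:**
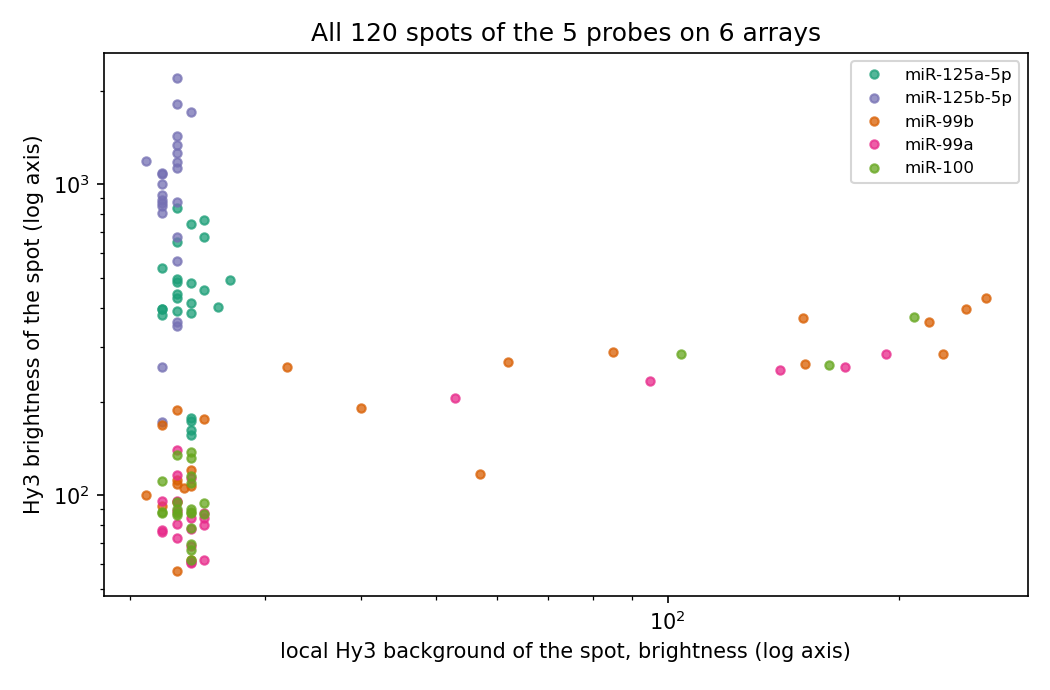
Hy3 brightness of each of the 120 member spots on the 6 arrays against the local Hy3 background beside it (both axes log), with 1 colour per probe. All miR-125 spots stood over a background of 21 to 27, while spots of miR-99b, miR-99a and miR-100 reached backgrounds up to 259, and the spots over the brightest backgrounds were among their brightest.

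The members were compared by their pattern across samples. Likeness was taken as the root mean square difference of the 6 log2 ratios after each probe's mean was removed, a description over 6 arrays that all share the reference and the group difference. This measure grows with a probe's own spread about its mean. That spread was 0.208 for miR-125a-5p and 0.218 for miR-125b-5p, but 0.123 for miR-99a, 0.0998 for miR-99b and 0.144 for miR-100. Among members the closest were miR-99a and miR-100 (0.0410), followed by miR-99a and miR-99b (0.0485). MiR-125a-5p and miR-125b-5p were farther apart (0.131), and miR-125b-5p and miR-99b were the farthest (0.140). The pairs that share a cluster stood at 0.124 (miR-99b with miR-125a-5p), 0.123 (miR-99a with miR-125b-5p) and 0.136 (miR-100 with miR-125b-5p).

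The same measure was taken against 242 other mouse probes above the blanks on at least 3 arrays. Closest to miR-125a-5p were miR-191 (0.0457), miR-129-3p (0.0520) and miR-92a (0.0529), where the median over all was 0.225. Closest to miR-125b-5p were miR-29c (0.0973), miR-29a (0.0985) and miR-124* (0.0987), with a median of 0.242. MiR-486 was the closest to miR-99a (0.0248) and to miR-100 (0.0504). After it came miR-190b (0.0350) and miR-465b-5p (0.0457) for miR-99a, and miR-200c* (0.0575) and miR-29b (0.0584) for miR-100. MiR-130a (0.0398), miR-465b-5p (0.0433) and miR-320 (0.0456) were closest to miR-99b. The medians over all were 0.167 for miR-99a, 0.183 for miR-100 and 0.153 for miR-99b.

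The opposite arms of the members' hairpins had probes of their own. Of 6 other arms sought, 4 had a mouse probe. Of these, 1 rose and 0 fell. MiR-125b-3p rose: its log2 ratio was -0.09, -0.06 and -0.07 in naive replicates 1 to 3, and 0.10, 0.23 and 0.22 in EAU replicates 1 to 3. All EAU samples lay above all naive ones. The difference was 0.26 (SE 0.04, limma adjusted p = 0.0205). In Hy3 alone it was -0.0727 (limma adjusted p = 0.970), so the direction differed between these scales. With median centring it was 0.54 (limma adjusted p = 0.4997), and over all 23 alternatives the call was lost in 10 and the direction reversed in 1. The call was lost when naive replicate 1, 2 or 3 or EAU replicate 3 was left out (limma adjusted p = 0.0866, 0.0663, 0.0573 and 0.0759).

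The hairpin of Mir125b-1 (chr9:41581926-41582002, plus strand, RefSeq GRCm38.p6) shows how the arms sit in 1 precursor. Capitals mark the 5p arm and, after the loop, the 3p arm that RefSeq gives for this gene. Which hairpin's 3p arm the array's miR-125b-3p and miR-125b* probes capture was not determined.
Mir125b-1: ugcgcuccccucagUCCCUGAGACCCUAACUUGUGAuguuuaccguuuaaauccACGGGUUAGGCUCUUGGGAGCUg

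The remaining arms gave no call. MiR-99b* was above the blanks on all arrays and differed by 0.07 (SE 0.11, limma adjusted p = 0.699). MiR-125a-3p and miR-125b* were under the blanks on every array, where differences of 0.02 and 0.01 carry no information on a level. A probe for the human miR-125b-2* and rat miR-125b* sequences was above the blanks on 5 arrays and differed by -0.04 (limma adjusted p = 0.581). Probes for human miR-99a*, rat miR-99a* and human miR-100* were under the blanks on every array.

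The let-7 miRNAs made from the same transcripts were read brightly. Of the 2 that could be tested, let-7a fell and let-7c did not pass. Both are also made from other genes. Their seed differs from those of the members.
let-7a: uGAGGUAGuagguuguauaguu
let-7c: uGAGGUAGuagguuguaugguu

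Let-7a had a log2 ratio of 0.69, 0.67 and 0.87 in naive replicates 1 to 3, and 0.27, -0.03 and 0.01 in EAU replicates 1 to 3. The groups lay 0.40 apart. The ratio fell by 0.66 (SE 0.10, limma adjusted p = 0.0179). In Hy3 alone its difference was -0.21 (limma adjusted p = 0.510) and with median centring -0.08 (limma adjusted p = 0.872), and the call was lost in 10 of 23 alternatives. With naive replicate 1, naive replicate 2 or EAU replicate 3 removed it no longer passed (limma adjusted p = 0.0842, 0.0612 and 0.0729). Let-7a had a spot of bright local background on every array but that of naive replicate 1. Without such spots its difference was -0.73 and did not pass (limma adjusted p = 0.0945).

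Let-7c, the partner of miR-99a, had 0.51, 0.42 and 0.48 in naive replicates 1 to 3, and 0.39, 0.23 and 0.36 in EAU replicates 1 to 3. Its groups did not overlap, and its difference of -0.14 (SE 0.05) did not pass (limma adjusted p = 0.113). It turned to 0.49 with median centring and to 0.0687 in Hy3 alone. Let-7e, between miR-99b and miR-125a, was not tested because 21 of its 24 spots were marked as outliers.

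MiR-351 is the only other miRNA on the array whose RefSeq seed equals that of a member, although its later bases differ. MiR-10b is shown beside it because it resembles miR-100 outside the seed.
miR-351: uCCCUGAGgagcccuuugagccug
miR-10b: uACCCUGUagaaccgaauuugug

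MiR-351 had a log2 ratio of -0.05, -0.07 and 0.05 in naive replicates 1 to 3, and 0.04, -0.09 and 0.14 in EAU replicates 1 to 3, with broad overlap. The difference of 0.06 (SE 0.07, 95% interval -0.11 to 0.23) did not pass (limma adjusted p = 0.591). It was above the blanks on all 6 arrays. MiR-10b, at an edit distance of 4 from miR-100, had a difference of -0.18 (SE 0.05, limma adjusted p = 0.0810) and was above the blanks on 1 array only. On that array, naive replicate 2, it had 2 spots above the blanks and 2 spots of bright local background, which reached 191. MiR-10a and miR-670 were under the blanks on every array.

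**Figure D5:**
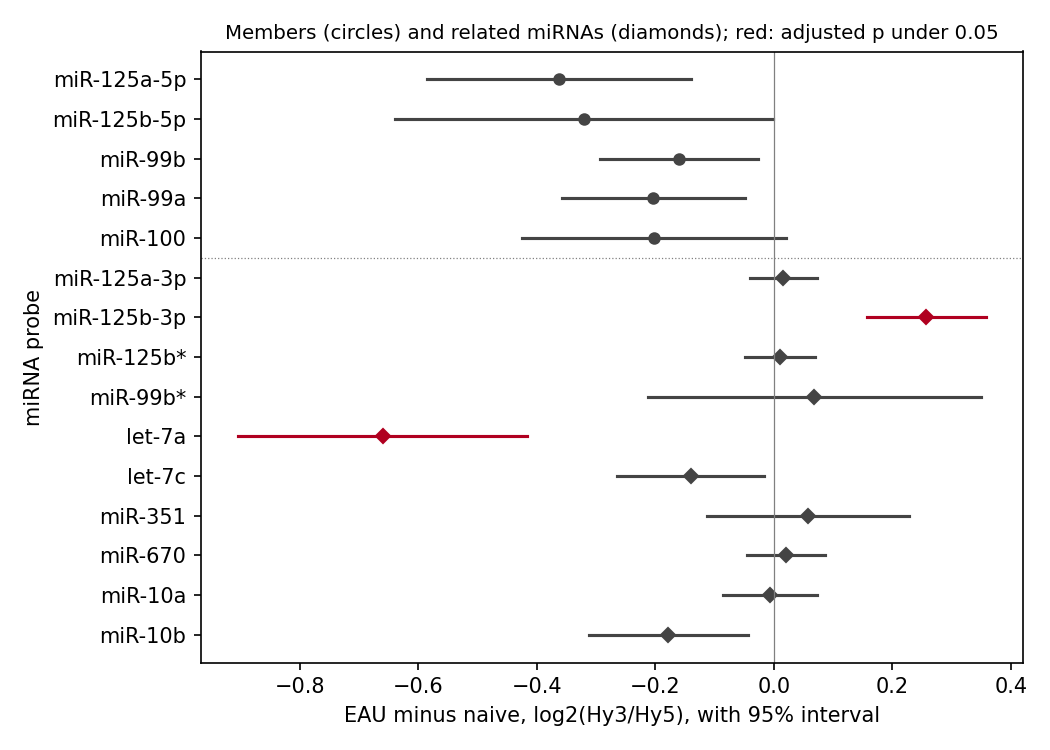
Difference of EAU minus naive in log2(Hy3/Hy5), with 95% intervals, for the 5 members (circles) and for related miRNAs (diamonds), red for an adjusted p under 0.05. The members lay between -0.36 and -0.16, let-7a at -0.66, and miR-125b-3p at 0.26 on the other side of 0.

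Markers of retinal and other cells were read beside the members, as miRNAs known to be enriched in each cell type. By log2 ratio, 1 of 3 photoreceptor probes (miR-183, miR-96 and miR-182) and 3 of 4 neuron probes passed the test as lower in EAU. So did 2 of 2 pigment epithelium probes, 2 of 2 smooth muscle and pericyte probes and 1 of 3 erythroid probes. Of all probes tested, 8.74% passed as lower and 4.2% as higher. The photoreceptor call was miR-183, with 8 outlier-marked spots and values on only 2 EAU arrays. Among the neuron calls, miR-128 was above the blanks on 1 naive array only. The neuron probe that did not pass was miR-124 (limma adjusted p = 0.520), whose groups overlapped. Over the 6 arrays 16 of its spots were dropped as outliers, and only 2 EAU arrays kept a value. Its difference in Hy3 alone was -1.78 (limma adjusted p = 0.0586). Of 5 leukocyte probes 1, miR-142-3p, passed as higher. None of the 2 endothelial and 4 striated muscle probes passed. In Hy3 alone, where 8.91% of all probes passed in either direction, the counts differed. As lower, 3 of 3 photoreceptor, 2 of 2 pigment epithelium and 1 of 2 smooth muscle and pericyte probes passed. None of the 4 neuron and 3 erythroid probes did, and 2 of 5 leukocyte probes passed as higher. The summed Hy3 brightness before correction was 2793 to 3134 in the naive and 495 to 1162 in the EAU samples for photoreceptor probes, and 44162 to 50063 against 6163 to 17479 for neuron probes, nearly all of it from miR-124. For pigment epithelium it was 1300.0 to 1651 against 287 to 1271.

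The leukocyte sum was 419 to 485 in the naive and 651 to 1381 in the EAU samples. The other sums overlapped: erythroid 209 to 269 against 215 to 443, endothelial 157 to 246 against 157 to 346, smooth muscle and pericyte 406 to 585 against 257 to 580, and striated muscle 316 to 623 against 341 to 647. Of the retinal markers, 3 of 3 photoreceptor probes, 3 of 4 neuron probes and miR-204 were above the blanks on every array. MiR-211 was so on all naive arrays and on 2 EAU arrays, and miR-128 on 1 naive array only. MiR-155, miR-144 and miR-126-5p stayed under the blanks on every array. MiR-142-3p and miR-142-5p were under the blanks on all naive arrays and above them on all EAU arrays. The leukocyte probes miR-223 and miR-150 were above the blanks on all arrays of both groups. Their log2 ratios differed by 0.13 and -0.10 (limma adjusted p = 0.751 and 0.294). The part of these shifts in the members' differences was not tested.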

How the data were processed

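The authors deposited 1 scanner file per array with spot intensity and local background in 2 channels, written by version 9.1.3.1 of Agilent Feature Extraction according to the file headers, and 1 table with a linear ratio for each probe. Set against the scanner files, the deposited ratio runs as Hy3 over Hy5; its normalization and centring stay unknown, and 36 rows above 32 on every array were left out. Dyes were not swapped.

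Mean spot intensity was corrected by normexp (offset 50) and loess within arrays (860 control spots at weight 0) in limma 3.58.1, R 4.3.3. Outlier-marked spots were dropped and spots of a probe averaged as log2. EAU minus naive was fitted with lmFit and eBayes, group as the only term, two-sided, over 595 mouse probes with values on at least 2 arrays per group. Of these steps, only the limma fit was tried on simulated probe values. Background correction, loess, the dropping of outlier spots and the averaging of spots were not simulated. The number of arrays limits the precision. Member probes were taken by name, but the choice of these families, the related miRNAs and the marker lists was made with earlier results of these data known. Named are all members, the listed relatives and the 3 probes most like each member. Alternatives are given in the closing section.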

Additional observations from a re-analysis of the deposited data

How the results depend on the processing

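Alternatives were compared for each member and for the count of 77 called probes. With 1 array left out, differences ranged from -0.44 to -0.29 for miR-125a-5p, -0.41 to -0.19 for miR-125b-5p, -0.26 to -0.17 for miR-99a, -0.22 to -0.12 for miR-99b and -0.27 to -0.13 for miR-100, and the count from 7 (without EAU replicate 3) to 77; it was 9, 15 and 36 without naive replicates 1, 2 and 3. The count was 2 with median centring, 25 with no normalization, 23 with loess on bright spots, 47 with the median of spots and 44 without spots of bright local background, an alternative chosen after seeing the data. The differences of miR-125b-5p and miR-99b reversed with no normalization (0.0157 and 0.0375), and that of miR-100 in the deposited ratios (0.23); the cause was not tested. MiR-125a-5p passed with dim probes removed (-0.36) and with outlier spots kept (-0.32), miR-99a with an offset of 10 (-0.48), and miR-99b with no background correction (-0.28). The shares of all probes that passed in these settings were 24.9%, 14.2%, 16.5% and 15.8%, in that order. MiR-99a had no value with dim probes removed.

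In Hy3 alone, miR-99b reversed without bright-background spots (0.0206) and miR-99a without naive replicate 3 (0.00848, from -0.19 with naive replicate 2 left out). In Hy5, miR-125a-5p reversed with the median of spots (0.0271), array weights (0.0492) and without naive replicate 1 (0.02) or EAU replicate 3 (0.0991), against -0.11 without EAU replicate 2. MiR-99b did so with an offset of 10 (-0.00779), the median of spots (-0.0195), array weights (-0.0181) and without naive replicate 1 (-0.00988), EAU replicate 2 (-0.00497) or EAU replicate 3 (-0.0141), against 0.0749 without EAU replicate 1 and 0.11 without bright-background spots. MiR-125b-5p did so without EAU replicate 3 (0.00665), against -0.55 without EAU replicate 2. MiR-125b-3p reversed in Hy3 alone (-0.0727). Let-7c reversed with median centring (0.49), no normalization (0.55), processed signals (0.0973), deposited ratios (0.11) and in Hy3 alone (0.0687).

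With the replicate number as a block, 2 probes and 0 of 5 members were called, with the members' differences as without the block, and miR-125b-3p and let-7a no longer passed (limma adjusted p = 0.0776 and 0.0851). The deviations from the group means correlated at 0.24, -0.15 and 0.31 between same-numbered samples. Naive replicates 1 and 3 each correlated best with the EAU replicate of their own number, and naive replicate 2 with EAU replicate 1 (0.27). With 3 deviations per group that sum to 0, these values cannot decide whether same-numbered samples were paired. The labels give only a number, so no pairing was used.

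Signal over the blanks limits miR-99a and miR-100.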
